A study of Mus musculus with 12 samples.

Results

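Gas5 and the Snhg genes are noncoding host genes: their exons have no known protein product, and their introns carry small nucleolar RNAs (snoRNAs). The 8 genes Gas5, Snhg1, Snhg3, Snhg4, Snhg5, Snhg6, Snhg8 and Snhg12 were taken by symbol from a table of 55228 genes, whose unit, TPM, is abundance scaled for transcript length and for the total of the library, and all 8 were expressed at a mean of at least 1 TPM. RNA sequencing had been done on regulatory T cells (Tregs), CD4+ T cells that restrain immune responses and depend on interleukin-2 (IL-2) made by other cells. The cells came from lymph nodes of 16 NOD.Foxp3-GFP mice, a diabetes-prone strain with a fluorescent reporter of the Treg transcription factor Foxp3. The study's methods give an age range for Treg donors of related NOD strains without naming this reporter strain, so no age is stated for it. GFP+CD25+ cells were sorted in 3 parts and activated separately, transduced on day 2, washed on day 4, and sorted on day 9 for Thy1.1, the transduction marker.

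Every library therefore came from activated, retrovirus-transduced and Thy1.1-sorted Tregs of the same pool of mice. EV no IL-2 Tregs carried the empty vector and received no IL-2 after the wash. EV+IL-2 Tregs carried the empty vector and stayed in IL-2-containing medium. 1G12t and 3A10t Tregs were cultured without IL-2 and expressed an orthogonal IL-2 variant, 1G12 or 3A10, tethered to the orthogonal IL-2 receptor β chain that it was made to bind. There were 3 libraries per group, all from 1 pool of mice, so the p-values do not measure the spread between mice. The 3 libraries were taken to be the 3 sorted parts, which the sample titles do not state. If so, the p-values measure the spread between these parts.

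snoRNAs guide the chemical modification of ribosomal RNA, so their host genes are tied to ribosome production. When a host transcript is spliced, the introns are trimmed to snoRNAs, while the spliced exons are exported and in many cases degraded by nonsense-mediated decay as ribosomes translate their short open reading frames. Many host transcripts begin with a run of pyrimidines, as ribosomal protein mRNAs do, which links their translation to growth signals, and Gas5 got its name, growth arrest specific, because its spliced RNA accumulates when growth and translation stop. Gas5 RNA is also known to bind the glucocorticoid receptor.

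Gene models for 7 of the 8 genes were found in GENCODE M21 (GRCm38), and all 7 were short, with median transcript lengths from 437 bases for Snhg3 to 915.5 bases for Snhg12. Gas5 lay on chromosome 1 (161034422 to 161038539, + strand) with 25 annotated transcripts. Snhg6 lay on the other strand of the same chromosome (9941959 to 9944118). Snhg12 (132308623 to 132311024, + strand) and Snhg3 (132348014 to 132353686, - strand) were both on chromosome 4. Snhg1 was on chromosome 19 (8723475 to 8726443, + strand), Snhg5 on chromosome 9 (88521050 to 88522929, - strand) and Snhg8 on chromosome 3 (123507552 to 123508404, - strand).

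Together these 7 genes held 27 annotated snoRNA genes on their own strand, and each of the 27 lay within an intron of at least 1 annotated transcript of its host. Gas5 held 9, Snhg1 held 8, Snhg12 held 4, Snhg3 and Snhg5 held 2 each, and Snhg6 and Snhg8 held 1 each. The 9 in Gas5 are shown because Gas5 was the most abundant of the 8 genes and held the most snoRNAs. The sequences are GENCODE M21 transcripts on the GRCm38 build, written 5′ to 3′ on the strand of the gene. Capitals mark the C box (TGATGA, looked for in the first 25 bases) and the D box (CTGA, looked for in the last 16 bases), the motifs that define C/D snoRNAs, which guide ribose methylation.
Gm26224, chr1:161035394-161035473 (+): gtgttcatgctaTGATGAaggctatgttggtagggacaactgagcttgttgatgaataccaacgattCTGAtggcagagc
Gm22489, chr1:161035850-161035911 (+): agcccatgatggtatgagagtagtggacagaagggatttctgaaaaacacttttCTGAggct
Gm22357, chr1:161036057-161036139 (+): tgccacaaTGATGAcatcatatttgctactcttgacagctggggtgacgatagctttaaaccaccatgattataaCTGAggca
Gm23212, chr1:161036682-161036741 (+): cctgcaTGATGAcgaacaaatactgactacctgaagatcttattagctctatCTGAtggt
Snord78, chr1:161036984-161037049 (+): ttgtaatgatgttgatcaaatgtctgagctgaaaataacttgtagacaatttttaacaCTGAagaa
Mir5117, chr1:161037356-161037439 (+): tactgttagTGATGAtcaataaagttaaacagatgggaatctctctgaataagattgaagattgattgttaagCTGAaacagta
Snord80, chr1:161037601-161037681 (+): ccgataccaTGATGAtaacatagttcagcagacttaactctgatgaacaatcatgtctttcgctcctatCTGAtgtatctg
Snord47, chr1:161038082-161038158 (+): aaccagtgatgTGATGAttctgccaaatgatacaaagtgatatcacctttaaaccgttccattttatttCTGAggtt
Gm25789, chr1:161038308-161038383 (+): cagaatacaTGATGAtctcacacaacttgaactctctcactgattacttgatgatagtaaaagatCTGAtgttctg
All 9 Gas5 snoRNAs held CTGA near the end and 7 of 9 held TGATGA near the start, while among all 1507 annotated snoRNA transcripts, which include other classes, 32.2% and 21.8% did.

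The 4 snoRNAs of Snhg12 are shown beside them because Snhg12 is of the other kind, with 3 H/ACA snoRNAs (Snora symbols), which guide pseudouridylation, and 1 C/D snoRNA. In the H/ACA snoRNAs the capitals mark the sequence ACA where it stood exactly 3 bases before the end, which held for 2 of the 3 and for 18.3% of all annotated snoRNA transcripts.
Snora16a, chr4:132309464-132309600 (+): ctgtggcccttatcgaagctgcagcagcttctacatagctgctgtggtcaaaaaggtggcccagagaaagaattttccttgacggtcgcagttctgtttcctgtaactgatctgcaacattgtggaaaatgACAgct
Snora44, chr4:132309941-132310069 (+): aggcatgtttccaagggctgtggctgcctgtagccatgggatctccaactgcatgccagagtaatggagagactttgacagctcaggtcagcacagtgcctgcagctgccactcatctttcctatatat
Snora61, chr4:132310240-132310369 (+): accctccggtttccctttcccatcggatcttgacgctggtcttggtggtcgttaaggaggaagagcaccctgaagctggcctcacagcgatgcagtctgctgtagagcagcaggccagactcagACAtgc
Snord99, chr4:132310691-132310764 (+): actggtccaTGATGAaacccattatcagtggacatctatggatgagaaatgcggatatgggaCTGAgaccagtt
Of the other hosts, the 2 snoRNAs of Snhg3 were near copies, with 198 of 205 bases identical (96.6%), as were the 2 of Snhg5, with 71 of 72 bases identical (98.6%).

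**Figure D1:**
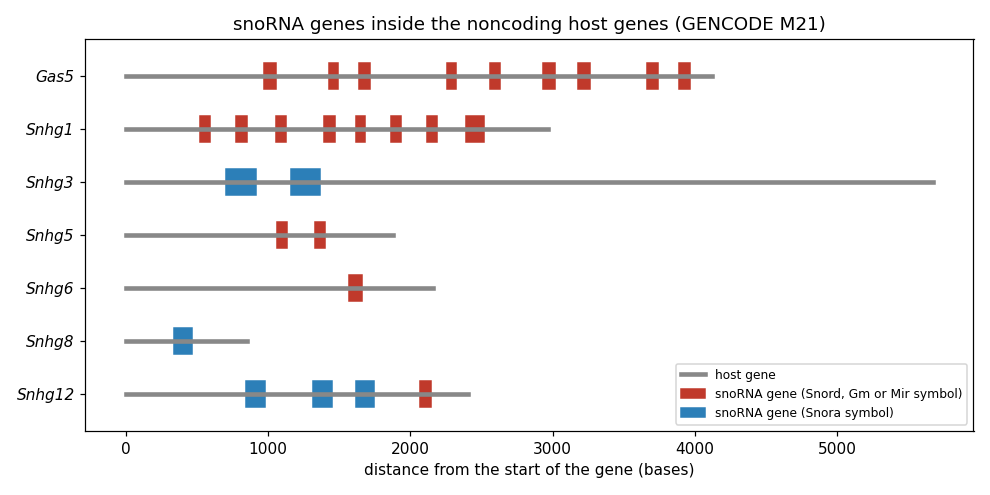
Each grey line is 1 noncoding host gene in GENCODE M21 from its start, in bases, and each box is a snoRNA gene inside it, coloured by the class of its symbol. Gas5 and Snhg1 carry 9 and 8 snoRNA genes spaced along the gene, and Snhg6 and Snhg8 carry 1 each.

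The start sites are shown because a pyrimidine run at the first base is the feature that host genes are known to share with ribosomal protein genes. RefSeq windows on GRCm38.p6 were found for 6 of the 8 genes, with 7 windows since Gas5 had 2 starts. Each sequence runs from 50 bases before to 50 bases from the annotated start, and capitals mark the longest run of C and T that overlapped the stretch from 5 bases before to 10 bases after the start.
Gas5, chr1:161035116-161035215 (+): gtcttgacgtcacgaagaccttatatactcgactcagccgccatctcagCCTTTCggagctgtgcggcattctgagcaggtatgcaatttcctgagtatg
Snhg12, chr4:132308628-132308727 (+): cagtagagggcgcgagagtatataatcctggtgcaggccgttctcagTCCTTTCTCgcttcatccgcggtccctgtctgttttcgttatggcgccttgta
Snhg1, chr19:8723437-8723536 (+): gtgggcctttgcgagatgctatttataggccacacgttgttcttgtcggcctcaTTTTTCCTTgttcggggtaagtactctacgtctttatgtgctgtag
Snhg3, chr4:132353637-132353736 (-): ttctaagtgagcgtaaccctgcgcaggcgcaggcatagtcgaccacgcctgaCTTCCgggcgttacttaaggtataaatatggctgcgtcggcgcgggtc
Snhg5, chr9:88522848-88522947 (-): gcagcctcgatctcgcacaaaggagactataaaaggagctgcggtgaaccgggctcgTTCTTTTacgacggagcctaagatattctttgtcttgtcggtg
Snhg8, chr3:123508287-123508386 (-): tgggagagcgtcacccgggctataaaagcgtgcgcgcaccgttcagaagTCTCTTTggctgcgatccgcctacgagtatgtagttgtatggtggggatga
The Gas5 window shown is the downstream start, and the upstream start had a longest run of 3. A run of at least 6 that overlapped this stretch around the start was present in 5 of 7 windows, against 25.3% of 32851 RefSeq promoters. The exceptions were Snhg3, with a run of 5, and the upstream Gas5 start. Of the 5, the runs of the downstream Gas5 start, Snhg12 and Snhg8 covered the first base. Those of Snhg1 and Snhg5 did not, and began at base 5 and base 8 from the start. The letters CTTTC within 5 bases before and 15 bases after the start stood in 2 of 7 windows, the downstream Gas5 start and Snhg12, against 2.47% of all promoters. In the 300-base windows, read on both strands, TATAAA was found in 4 of 7 and in 13.6% of all promoters, and neither CACGTG (7.15% of all) nor TTCNNNGAA (8.3% of all) was found in the 7. These are matches of letters, and no binding was measured.

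Before the comparisons, the libraries were checked. The 3 EV+IL-2 libraries had the fewest genes with any signal, 30393, 32422 and 36239, against 37930 to 43285 in the other 9. Size factors ranged from 0.854 to 1.093, and the share of the 10 top genes in a library from 8.85% to 13.5%, highest in the 3 3A10t libraries. The number of reads is not kept in TPM, so the depth behind the values is unknown. The 7 Treg markers were all expressed, with a summed level of 4830 to 5220 scaled TPM in EV+IL-2 libraries and 3620 to 4430 in the others. The 4 B cell markers summed to 20.9 to 27.2 in 3A10t, 14.2 to 26.9 in 1G12t, 15.5 to 17.9 in EV no IL-2 and 14.5 to 17.4 in EV+IL-2 libraries, the 2 CD8 T cell markers to 3.45 to 6.51 in all libraries, and the 5 myeloid markers to 539 to 764 in 3A10t and 441 to 555 in the others, of which only Cst3, a gene of many cell types, passed the filter. The 6 erythroid markers summed to 24.5 to 38.7 in EV+IL-2 libraries and to 1.76 to 4.02 in the others, and none of the 6 was at 0 in every library. The part of these markers, and of the lower number of genes with signal, in the results on EV+IL-2 Tregs was not tested.

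Gas5 was the most abundant of the 8 genes in every group, with 62.1% of their summed level in 1G12t Tregs, 63.4% in EV no IL-2, 65.2% in 3A10t and 67.3% in EV+IL-2. The levels given are scaled TPM, that is TPM divided by a size factor of the library, which already corrects for transcript length. The 8 genes summed to 629 ± 6.34 scaled TPM (SD, n = 3) in EV+IL-2 Tregs and 608 ± 18.6 in 3A10t Tregs, and to 548 ± 18.9 in EV no IL-2 and 545 ± 16.5 in 1G12t Tregs. Next to Gas5, Snhg3 stood between 56.65 and 80.3 in single libraries, Snhg5, Snhg6, Snhg8 and Snhg1 between 17.53 and 39.75, and Snhg4 and Snhg12 between 7.72 and 17.54. In bulk RNA, fewer expressing cells and less RNA per cell cannot be told apart.

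**Figure D2:**
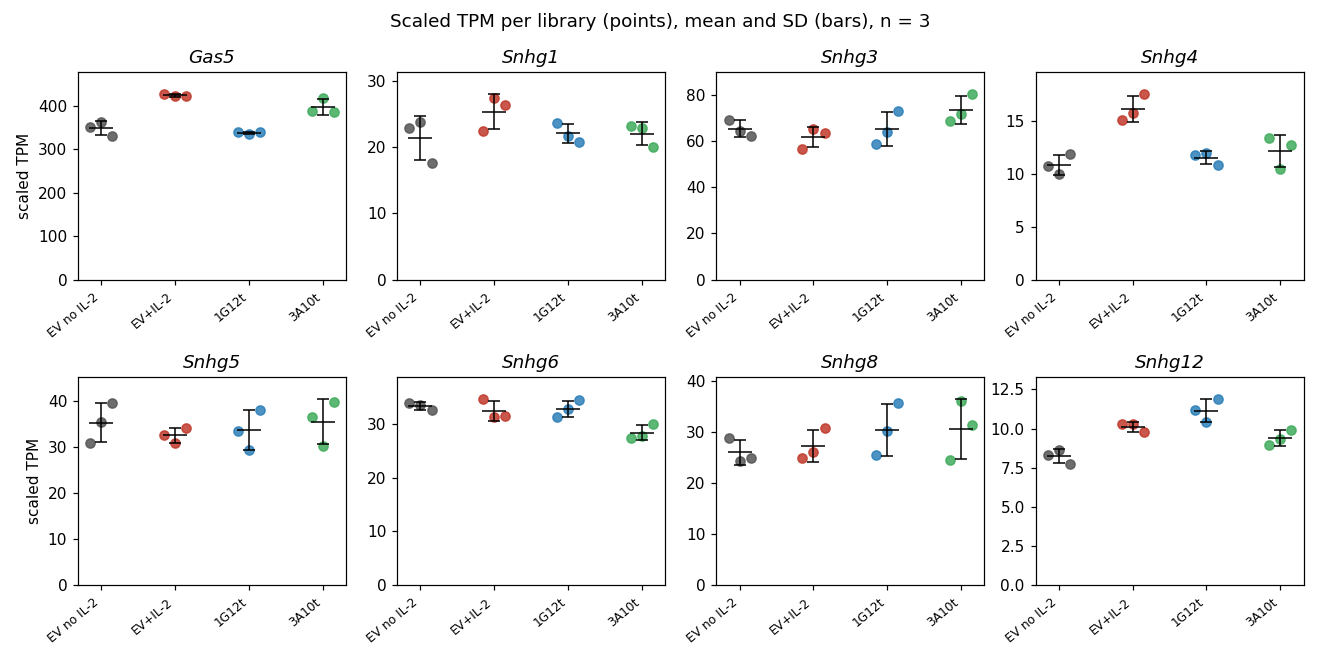
Scaled TPM of each gene (vertical axis from 0, a scale of its own per panel) in the 4 groups, with points for the 3 libraries and bars for the mean and SD. Gas5 and Snhg4 in EV+IL-2 lie above every EV no IL-2 and 1G12t library, Snhg6 in 3A10t lies below every other library, and the groups of Snhg5 and Snhg8 overlap.

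To ask what exogenous IL-2 did to these host genes, EV+IL-2 Tregs were compared with EV no IL-2 Tregs, and 3 of the 8 genes were higher with IL-2: Snhg4, Gas5 and Snhg12. None was lower. The test was limma on log2(scaled TPM + 1) over 15043 genes, with a Benjamini-Hochberg adjusted p under 0.05 as the call, and the fold changes on that scale understate changes of low genes. The 3 of 8 were 37.5%, where 13.3% of all genes tested were called and 8.17% were called higher. The rule used in the study was an unadjusted p under 0.01 with a log2 fold change beyond 0.25, there applied to DESeq2. Applied here to the limma fit, it was passed by the same 3 genes and by 8.99% of all genes upward. The median log2 fold change of the 8 genes was 0.155, against -0.0144 for all genes tested.

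Snhg4 showed the largest change. Its level was 10.77, 9.998 and 11.85 scaled TPM in the EV no IL-2 libraries and 15.12, 15.71 and 17.54 in the EV+IL-2 libraries. All 3 libraries with IL-2 were above all 3 without, and the mean was 48.3% higher (log2 fold change 0.53, SE 0.10, limma adjusted p = 0.00667).

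Gas5 moved less in proportion but carried most of the RNA. It was at 351.9, 361.5 and 330.3 scaled TPM without IL-2 and at 426.5, 422.2 and 422.1 with IL-2. The groups did not overlap, the 3 libraries with IL-2 were nearly equal, and the mean was 21.8% higher (log2 fold change 0.28, SE 0.061, limma adjusted p = 0.011). The call was lost with quantile normalization, where the log2 fold change was 0.16 (limma adjusted p = 0.078), and when the lowest control library, EV no IL-2 replicate 3, was left out (0.24, limma adjusted p = 0.056).

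Snhg12 was at 8.335, 8.624 and 7.72 scaled TPM without IL-2 and at 10.3, 10.3 and 9.753 with IL-2. These groups also did not overlap, and the mean was 23.0% higher (log2 fold change 0.27, SE 0.080, limma adjusted p = 0.048). This call stood close to the threshold: with the replicate number as block the limma adjusted p was 0.072. The call held in 6 of 23 alternatives, over which the limma adjusted p ranged from 0.0365 to 0.185. In all, 3 of 8 genes had all libraries above, where 19.6% of genes tested did.

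For the other 5 genes no difference was called. Snhg1 was at 22.79, 23.7 and 17.53 without IL-2 and at 22.35, 27.37 and 26.25 with IL-2 (log2 fold change 0.24, 95% confidence interval -0.029 to 0.52, limma adjusted p = 0.25). Its interval held changes as large as those of Gas5, and the log2 fold change fell to 0.11 with the lowest library, EV no IL-2 replicate 3, left out. For Snhg6 the interval was narrower, from -0.20 to 0.12, around a log2 fold change of -0.039. Snhg3 gave -0.081 (interval -0.30 to 0.14), Snhg5 -0.11 (-0.39 to 0.18) and Snhg8 0.067 (-0.28 to 0.41). The libraries of both groups overlapped in each of these 5 genes.

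**Figure D3:**
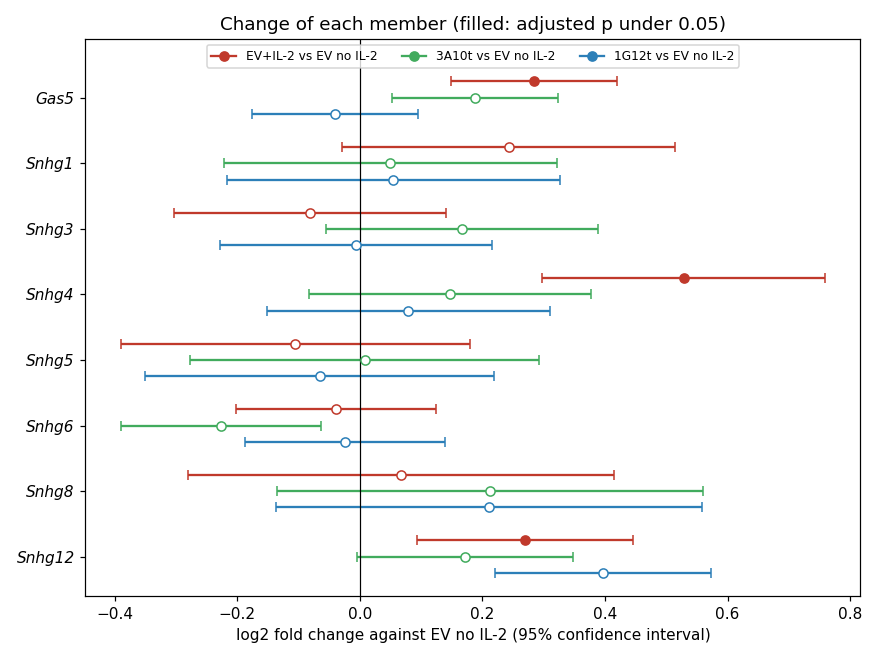
Difference of each gene from EV no IL-2 Tregs as a log2 fold change (horizontal axis), with its unadjusted 95% confidence interval, for EV+IL-2, 3A10t and 1G12t, with filled points where the limma adjusted p was under 0.05. Filled points appear only for EV+IL-2, at Gas5, Snhg4 and Snhg12, and the Snhg12 interval of 1G12t runs from 0.22 to 0.57 without a call over all genes.

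To ask whether tethered 3A10 acted on the host genes in the absence of IL-2, 3A10t Tregs were compared with EV no IL-2 Tregs, and 0 of the 8 genes were called by limma, where 2.05% of all genes were. At an unadjusted p under 0.05 there were 2, Gas5 and Snhg6, with opposite signs, where 3911 of all 15043 genes tested were. By the rule of the study there were 0, where 9.5% of all genes passed. The median log2 fold change of the 8 genes was 0.157, against 0.0263 for all genes. The 3 libraries were all above or all below in 3 of 8 genes, where 25.4% of genes tested were.

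Gas5 was at 386.7, 418 and 385 scaled TPM in 3A10t Tregs. All 3 were above the 3 EV no IL-2 libraries, and the mean was 14.0% higher (log2 fold change 0.19, 95% confidence interval 0.053 to 0.32, limma adjusted p = 0.11). The size depended on the scaling: on TPM as deposited it was 0.039, where the median of all genes also moved by -0.117, and with quantile normalization 0.055. It was called in 1 of 23 alternatives, without 3A10t replicate 1 (limma adjusted p = 0.045).

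Snhg6 went the other way. It was at 33.97, 33.44 and 32.58 scaled TPM in EV no IL-2 Tregs, at 34.57, 31.31 and 31.45 with IL-2, at 31.23, 32.72 and 34.37 in 1G12t, and at 27.37, 27.7 and 30 in 3A10t Tregs. The 3A10t libraries were the 3 lowest of the 12, with a log2 fold change of -0.23 from EV no IL-2 (limma adjusted p = 0.11). It was not called by adjusted p in any of 23 alternatives, but the size depended on the scaling, with -0.37 on TPM as deposited (limma adjusted p = 0.051) and -0.11 with quantile normalization, and Snhg6 passed the rule of the study on TPM as deposited and with a length correction. Snhg12 was at 8.949, 9.309 and 9.925 in 3A10t Tregs, all above the libraries of EV no IL-2 (log2 fold change 0.17, limma adjusted p = 0.20). On TPM as deposited this was 0.038, and with quantile normalization 0.26.

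The remaining 5 genes overlapped between 3A10t and EV no IL-2 libraries. Snhg3 was at 68.62, 71.74 and 80.3 in 3A10t and at 69.26, 64.54 and 62.25 in EV no IL-2 (log2 fold change 0.17, 95% confidence interval -0.055 to 0.39). Snhg8 was the most variable, at 24.4, 35.98 and 31.27 in 3A10t Tregs (0.21, interval -0.13 to 0.56). Snhg4 gave 0.15 (interval -0.083 to 0.38). On TPM as deposited these 3 values were 0.019 for Snhg3, 0.068 for Snhg8 and 0.011 for Snhg4, and with quantile normalization 0.20, 0.31 and 0.26. Values for Snhg1 (0.050) and Snhg5 (0.0077) changed sign with the scaling or with the library left out.

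Differences between 3A10t and EV no IL-2 Tregs moved with transcript length. Over all genes tested, the median was 0.15 on the log2 scale for transcripts of up to 500 bases, 0.087 for 500 to 1000 bases and -0.19 above 4000 bases. Of the 7 genes with a model, Snhg3 lay in the first of these classes and the other 6 in the second. With a length correction the Gas5 log2 fold change was 0.13 (limma adjusted p = 0.14) and that of Snhg6 was -0.31 (limma adjusted p = 0.080). In EV+IL-2 against EV no IL-2 the length medians lay between -0.0404 and 0.0013, and Gas5 remained called after the correction (0.25, limma adjusted p = 0.0047).

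**Figure D4:**
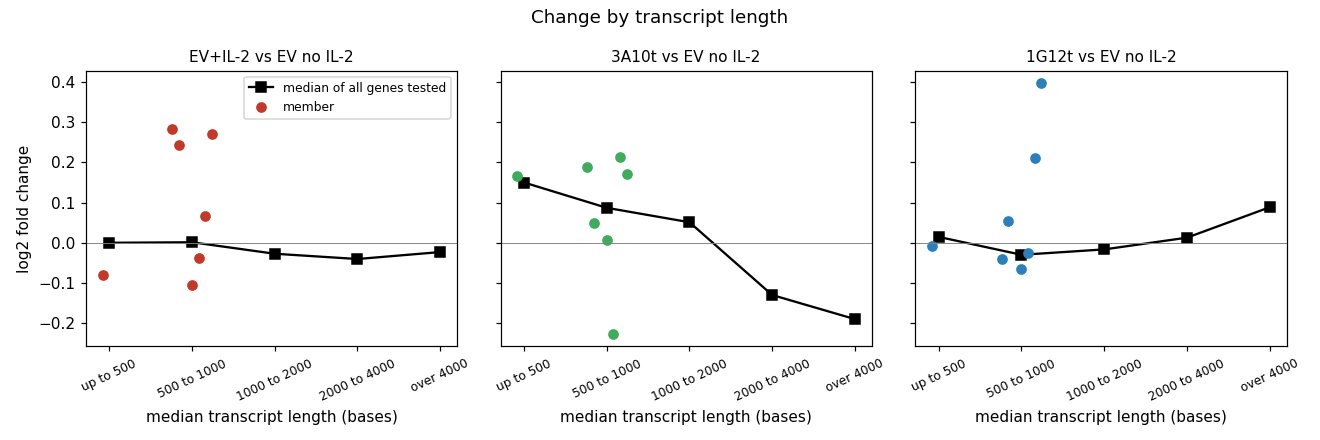
Squares joined by lines are medians over the genes tested, as log2 fold changes, by median transcript length in bases, and points are the 7 host genes with a gene model, for the 3 comparisons with EV no IL-2. In 3A10t the line falls from 0.15 to -0.19 with length, and all 7 host genes lie in the 2 shortest classes.

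For tethered 1G12 against EV no IL-2 Tregs, limma called 0 of the 8 genes at an adjusted p under 0.05. Of all genes, 0.0199% were called. An unadjusted p under 0.05 was found for 1 of the 8 and for 1059 of all 15043 genes tested. The 1 member was Snhg12, which in this limma fit also passed the rule of the study, as 1.36% of all genes did. The study's own list of genes higher in 1G12t Tregs, made with DESeq2, did not hold Snhg12. Snhg12 was at 11.16, 10.43 and 11.86 scaled TPM in 1G12t Tregs. All 3 were above the EV no IL-2 libraries and above the EV+IL-2 libraries (0.40 above EV no IL-2 on the log2 scale, SE 0.080, unadjusted p = 0.00045, limma adjusted p = 0.59). The adjusted p stayed above the threshold in all 23 alternatives (0.21 to 1.0).

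Gas5 in 1G12t Tregs was at 339.8, 335 and 339.1 scaled TPM. These values lay within the range of the EV no IL-2 libraries, and the interval of the difference ran from -0.18 to 0.094 on the log2 scale. Snhg4 was at 11.82, 11.93 and 10.83, overlapping EV no IL-2 (interval -0.15 to 0.31). The intervals were -0.19 to 0.14 for Snhg6, -0.23 to 0.21 for Snhg3, -0.22 to 0.33 for Snhg1, -0.35 to 0.22 for Snhg5 and -0.14 to 0.56 for Snhg8. The libraries overlapped in 7 of the 8 genes, and did not in 16.5% of all genes tested.

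The tethered constructs were then compared with each other, and 0 of the 8 genes were called by limma between 3A10t and 1G12t Tregs, where 4.27% of all genes were. By unadjusted p under 0.05 there were 3, where 4470 of all 15043 genes tested were. By the rule of the study there were 0, where 12.4% of all genes passed. Gas5 was higher in each 3A10t than in each 1G12t library (mean 17.3% higher, log2 fold change 0.23, 95% confidence interval 0.094 to 0.36, limma adjusted p = 0.055). It was called without 3A10t replicate 1 (0.25, limma adjusted p = 0.020), and on TPM as deposited the value was 0.037, where the median of all genes moved by -0.162. Snhg12 (-0.22, limma adjusted p = 0.098) and Snhg6 (-0.20, limma adjusted p = 0.11) were lower in each 3A10t library. Both were called on TPM as deposited, Snhg12 at -0.40 (limma adjusted p = 0.027) and Snhg6 at -0.39 (limma adjusted p = 0.031), and with quantile normalization they were -0.073 and -0.13. Snhg3, at 0.17 (limma adjusted p = 0.27), was -0.017 on TPM as deposited.

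The tethered groups differ from EV+IL-2 Tregs both in the construct and in the soluble IL-2, and these cannot be told apart. Against EV+IL-2 Tregs, Snhg4 was lower with both constructs. In 3A10t Tregs, 1 of the 8 genes was called, where 23.4% of all genes tested were, and it was Snhg4, at 13.38, 10.48 and 12.69 scaled TPM. All 3 were below the EV+IL-2 libraries (log2 fold change -0.38, SE 0.10, limma adjusted p = 0.024). This call was lost with quantile normalization (limma adjusted p = 0.11), with only the 6 libraries compared (0.11), and without EV+IL-2 replicate 2 (0.054), EV+IL-2 replicate 3 (0.082) or 3A10t replicate 2 (0.067). In the same comparison the B cell marker Cd74 was higher in 3A10t Tregs (0.95, limma adjusted p = 0.041). The Treg genes Il2ra, the α chain of the IL-2 receptor, and Foxp3 were lower (-0.88, limma adjusted p = 0.00048, and -0.31, limma adjusted p = 0.019). The other 5 of the 7 Treg markers and the other 2 of the 3 tested B cell markers were not called. The part of the called differences in that of Snhg4 was not tested.

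The difference of Gas5 between 3A10t and EV+IL-2 Tregs was -0.096 on the log2 scale and was not called (95% confidence interval -0.23 to 0.039, limma adjusted p = 0.28), although each 3A10t library was below each EV+IL-2 library. On TPM as deposited it was -0.18 and was called (limma adjusted p = 0.023). Snhg3 was above in each 3A10t library (0.25, limma adjusted p = 0.099) and Snhg6 below (-0.19, limma adjusted p = 0.090). On TPM as deposited these were 0.16 and -0.27, and with quantile normalization 0.32 and -0.045, without a call. Snhg1, Snhg5, Snhg8 and Snhg12 overlapped between these groups.

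In 1G12t against EV+IL-2 Tregs, 2 of the 8 genes were called, both lower, where 20.6% of all genes were called and 10.9% called lower. The mean of Gas5 differed by -20.2% (log2 fold change -0.33, SE 0.061, limma adjusted p = 0.0041) and that of Snhg4 by -28.5% (log2 fold change -0.45, SE 0.10, limma adjusted p = 0.012). Each 1G12t library of both genes was below each EV+IL-2 library. The Gas5 call was lost with quantile normalization (-0.12, limma adjusted p = 0.16) and the Snhg4 call on TPM as deposited (limma adjusted p = 0.097). These comparisons share the EV+IL-2 libraries with the first, and are not separate evidence of the difference.

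The order of the group means differed among the genes. Gas5 ran from EV+IL-2 (424) through 3A10t (397) and EV no IL-2 (348) to 1G12t (338), and no neighbours in this order differed by a limma adjusted p under 0.05. Snhg4 had EV+IL-2 (16.1) above 3A10t (12.2), a difference that was called, then 1G12t (11.5) and EV no IL-2 (10.9), which overlapped. Snhg12 ran from 1G12t (11.15) through EV+IL-2 (10.1) and 3A10t (9.39) to EV no IL-2 (8.23), with no call between neighbours. Snhg6 had 3A10t lowest (28.4) and the others between 32.4 and 33.3. Snhg6, Snhg3, Snhg5, Snhg8 and Snhg1 had no called difference between any groups with this scaling.

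The snoRNAs themselves were hardly seen in these libraries. Of the 27 snoRNA genes, 26 were found in the table, 12 reached a mean of at least 1 TPM, and 247 of their 312 values were listed at 0. For the 8 of Gas5 that were found, 80 of 96 values were 0, and the highest, 55.05 scaled TPM for Gm22357, stood in 1G12t replicate 3 while the 2 other 1G12t libraries were at 0. Snora73b of Snhg3 was the most regular, at 13.83, 9.168 and 8.247 with IL-2 and 11.28, 0.7503 and 11.95 in EV no IL-2. An exact 0 can also be a failed estimate, and no comparison of these RNAs was made. The study made the libraries from amplified cDNA with a size selection on beads, and the part of these steps in the values at 0 was not tested.

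Genes that share a start or overlap with a member were read next, since reads can be split between such genes. Snhg4 had no gene model, so its neighbours and overlaps could not be looked for. Rcc1, the nucleotide exchange factor of the GTPase Ran, overlaps Snhg3 on the same strand, with starts 81 bases apart. Rcc1 was at 34.42, 29.89 and 29.56 scaled TPM with IL-2 and at 18.56, 15.58 and 16.83 in the vector control without it. All libraries with IL-2 were higher, by 1.84-fold (log2 fold change 0.84, limma adjusted p = 0.00064), while Snhg3 averaged 61.8 with and 65.4 without IL-2. Since reads of the shared region could be split between the 2 genes, the Snhg3 values are uncertain. Slc3a2, a subunit of amino acid transporters, starts 106 bases from Snhg1 on the other strand, and its log2 fold change was -0.14 in EV+IL-2 (limma adjusted p = 0.50) and 0.28 in 3A10t (limma adjusted p = 0.15), with 188.7 scaled TPM in 3A10t against 139.5 in EV+IL-2 (limma adjusted p = 0.020). Zbtb37, whose start overlaps Gas5 on the other strand, averaged 7.49 with IL-2 and 7.34 without, with overlapping libraries. Mcmdc2, which overlaps the end of Snhg6, was at 0.6685 scaled TPM or less in every library. Whether the libraries kept the strand is not given in the sources used here, so reads of overlapping genes on opposite strands may not be told apart.

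Host genes that make proteins were read beside them. Of 31 protein-coding genes that host snoRNAs in their introns, mostly ribosomal proteins and translation factors, 18 were higher and 0 lower in EV+IL-2 than in EV no IL-2 Tregs. Of all genes tested, 8.17% were called higher. The median log2 fold change of the 31 was 0.358, where the 8 noncoding genes had 0.155. Rps12, a protein of the small ribosomal subunit, rose by 0.67 (limma adjusted p = 0.0031), Eef2, the elongation factor that moves the ribosome, by 0.51 (limma adjusted p = 0.028) and Rpl10, of the large subunit, by 0.48 (limma adjusted p = 0.0056). In 3A10t Tregs, where 2.05% of all genes tested were called, 1 of 31 was higher, Dkc1 (0.44, limma adjusted p = 0.045). An unadjusted p under 0.05 was found for 19 of 31 and for 3911 of all 15043 genes tested. By the rule of the study 8 of the 31 were higher and 1 was lower, where 9.5% of all genes passed. The median of the 31 was 0.234. Over all genes tested in this comparison, the median was 0.15 for transcripts of up to 500 bases and 0.087 for 500 to 1000 bases. The part of transcript length in the values of the 31 was not tested. In 1G12t Tregs 0 of 31 were called by limma and 0 had an unadjusted p under 0.05, with a median of -0.0167. Of all 15043 genes tested, 1059 had an unadjusted p under 0.05 there.

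Of 9 tested other noncoding hosts (12 listed), 1 was higher in EV+IL-2, where 8.17% of all genes tested were called higher. It was Snhg15, at 136.9, 154.3 and 150.1 scaled TPM against 94.39, 93.68 and 103.7 without IL-2 (log2 fold change 0.59, limma adjusted p = 0.0057). None of the 9 was called by limma in 3A10t or 1G12t against EV no IL-2, where 0 and 1 had an unadjusted p under 0.05. Of all 15043 genes tested, 3911 and 1059 had an unadjusted p under 0.05 in these comparisons. Between 3A10t and EV+IL-2, where 23.4% of all genes tested were called, 3 were lower in 3A10t: Zfas1 (-0.78, limma adjusted p = 0.0075), Snhg16 (-0.56, limma adjusted p = 0.0075) and Snhg15 (-0.44, limma adjusted p = 0.019). Like Snhg4, these 3 had all 3A10t libraries below all EV+IL-2 libraries.

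**Figure D5:**
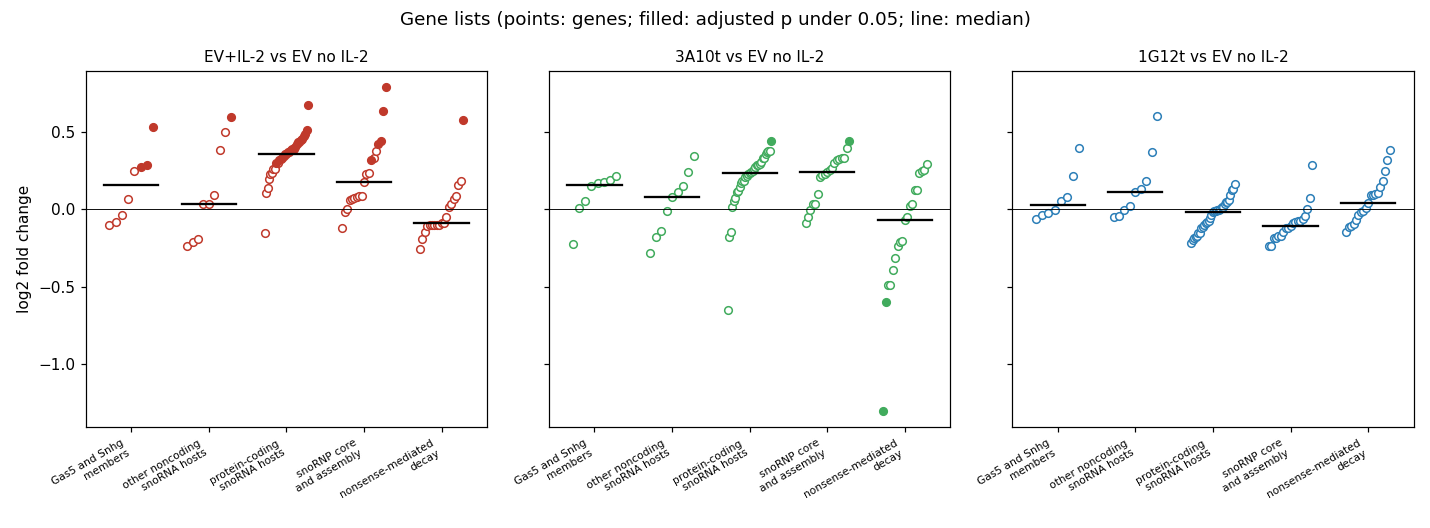
Single genes of 5 lists, each at its difference from EV no IL-2 Tregs as a log2 fold change (vertical axis), with filled points where the limma adjusted p was under 0.05 and a line at the median of the list. Protein-coding hosts have the most filled points in EV+IL-2, 18 of 31, and 1 of 31 in 3A10t.

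The proteins that package snoRNAs were compared in the same way. Among 19 genes of the snoRNP core and its assembly, 5 were higher and 0 lower in EV+IL-2. Against EV no IL-2, 8.17% of all genes tested were called higher in EV+IL-2 and 2.05% were called in 3A10t. Naf1, an assembly factor of H/ACA particles, rose by 0.79 (limma adjusted p = 0.011), and the H/ACA core proteins Nhp2 and Gar1 rose by 0.64 (limma adjusted p = 0.014) and 0.44 (limma adjusted p = 0.032). In 3A10t Tregs 1 of 19 was higher, Dkc1, the pseudouridine synthase of these particles, at 159.1, 190.4 and 172.1 scaled TPM against 123.6, 127.2 and 131.9 in EV no IL-2. In 1G12t Tregs 0 of 19 were called by limma. An unadjusted p under 0.05 was found for 1 of 19, and for 1059 of all 15043 genes tested. Dkc1, Nop56 and Nop58 stand in both lists, and these 3 are counted in each.

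Nonsense-mediated decay, which removes spliced Gas5 RNA, was read through 19 of its genes. In EV+IL-2 Tregs, where 8.17% of all genes tested were called higher, 1 was higher, Magohb (0.58, limma adjusted p = 0.042), a subunit of the exon junction complex. In 3A10t Tregs, where 2.05% of all genes tested were called, 2 were lower and 0 higher. The 2 were Upf1 and Dhx34, both RNA helicases of the pathway. Upf1 was at 13.38, 14.3 and 11.54 scaled TPM in EV no IL-2 and at 6.156, 3.009 and 5.425 in 3A10t Tregs. The 3A10t libraries were all below, with a mean 0.372 times that of the control (limma adjusted p = 0.019), and Dhx34 gave a log2 fold change of -0.60 (limma adjusted p = 0.040). The median length of Upf1 transcripts is above 4000 bases, and genes above 4000 bases had a median of -0.19 in this comparison.

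The glucocorticoid receptor, a binding partner of Gas5 RNA, and 6 genes it is known to induce did not move one way in EV+IL-2 Tregs. Of the 7, 1 was higher and 2 were lower, where 13.3% of all genes tested were called. Dusp1, a MAP kinase phosphatase, rose by 1.54 (limma adjusted p = 0.0064), and Tsc22d3, which encodes GILZ, and the kinase gene Sgk1 fell by 0.59 (limma adjusted p = 0.0026) and 0.56 (limma adjusted p = 0.039) on the log2 scale. None of the 7 was called by limma in 3A10t or 1G12t against EV no IL-2, where 2 and 1 had an unadjusted p under 0.05. Of all 15043 genes tested, 3911 and 1059 had an unadjusted p under 0.05 in these comparisons. Among 12 tested long noncoding RNAs without snoRNAs, 2 were higher in EV+IL-2, Xist (0.94, limma adjusted p = 0.017) and Pvt1 (0.78, limma adjusted p = 0.0067), and none was called by limma in 3A10t or 1G12t against EV no IL-2, with 2 and 1 at an unadjusted p under 0.05. Of all 1212 long noncoding genes tested, 12% were called in EV+IL-2 and 0.413% in 3A10t.

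The genes with the pattern most like each member over the 12 libraries were found by Pearson r among 10034 genes with a mean of at least 5 TPM. These correlations describe libraries that share groups and a scaling, and no test was made. Gas5 was most like Atp5g3, a subunit of mitochondrial ATP synthase, with r = 0.985, and Fam162a, with r = 0.977. Snhg4 was most like Chtf18, a factor of DNA replication, with r = 0.95, and Rbl1, of the retinoblastoma family, with r = 0.939. For the others the highest r was 0.932 for Snhg8 with Wasl, 0.929 for Snhg1 with the pseudogene Gm8692, 0.916 for Snhg3 with Erich1, 0.877 for Snhg6 with March3, 0.859 for Snhg5 with Rdh10 and 0.826 for Snhg12 with Rbbp6. Between members, r was 0.641 for Gas5 and Snhg4 and 0.582 for Gas5 and Snhg1, and -0.00187 for Gas5 and Snhg3.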

How the data were processed

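RNA sequencing values of 12 libraries, 3 in each of 4 groups, were read from a deposited table of TPM, in which the authors had trimmed reads with Cutadapt 1.18, aligned them to mm10 with STAR 2.5.3 and quantified genes with RSEM 1.3.0 on GENCODE annotation. TPM keep no read depth, so no counting error could be given, and a count test was not used. The authors' own test was DESeq2 1.26. Groups and replicate numbers came from the sample labels. TPM were divided by median-of-ratios factors, and log2(scaled TPM + 1) of the 15043 genes with a mean of at least 1 TPM was fitted in R 4.3.3 with limma 3.58.1 (eBayes with trend), 1 mean per group over all 12 libraries, for 6 comparisons. A call was a Benjamini-Hochberg adjusted p under 0.05 over all genes. The rule of the study (unadjusted p under 0.01 and log2 fold change beyond 0.25) was applied to the same fit. The fit was tested on simulated data.

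The members, gene lists, comparisons and rules were chosen with earlier results of these data known. Named genes were every member, up to 3 called genes per list and comparison with the largest changes, snoRNA genes within members, neighbours within 5 kb, and the 2 genes most like each member, of which at least the first is given. Coordinates and lengths came from GENCODE M21 on GRCm38, which may differ in detail from the authors' release; 14857 of the genes tested (98.8%) had a length. Replicate numbers were taken to mark the sorted part of the pool, which the sample titles do not state. The main fit did not pair libraries by this number. Deviations of same-numbered libraries correlated at a mean r of 0.0409 over 18 pairs (range -0.105 to 0.155), against -0.0205 for 36 pairs with different numbers. Alternatives were the pseudocount (0.1 or 5), the filter, the scaling, the replicate block, the variance trend, a length correction, a fit of only the 6 libraries compared, and each library left out.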

Additional observations from a re-analysis of the deposited data

How the results depend on the processing

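Over the 8 genes, 6 comparisons and all alternatives there were 1092 values, of which 1012 kept their direction and side of the threshold, 26 lost a call, 5 gained one and 49 changed sign, and none of the sign changes touched a called value. Snhg4 in EV+IL-2 against EV no IL-2 Tregs was called in 21 of 21 alternatives, Gas5 in 21 of 23 and Snhg12 in 6 of 23. TPM carry no depth, so what depth limits could not be measured, and 3 libraries per group from 1 pool of mice limit the precision. Snhg4 had no length, so counts after the length correction cover 7 genes. The replicate block took the Snhg12 call in EV+IL-2 (2 of 8 called instead of 3) and changed no other call of a member; calls over all genes were 1974 with the block against 2001 in EV+IL-2, 402 against 308 in 3A10t and 987 against 642 between 3A10t and 1G12t. In the fit of only the 6 libraries compared, calls over all genes were 3069, 9 and 12 in these comparisons, and 1600 between 3A10t and EV+IL-2 against 3513; on TPM as deposited they were 499 in 3A10t and 1396 between 3A10t and 1G12t, with a length correction 247 in the latter, and with quantile normalization 182 in 3A10t.

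In EV+IL-2 against EV no IL-2, members called by adjusted p were 1 with quantile normalization and 1 with the replicate block and length correction together, and 1 to 3 with a library left out, 1 without EV no IL-2 replicate 3. By the rule of the study they were 1 on TPM as deposited, 1 with quantile normalization, 1 with block and length correction, and 1 to 3 with a library left out. With block and length correction the 1 was Gas5 by either rule, since Snhg4 had no value there and Snhg12 did not pass. In 3A10t against EV no IL-2 they were 0 to 1 with a library left out by either rule, and by the rule of the study 1 on TPM as deposited, 1 with the length correction and 1 with block and length correction, Snhg6 in each. Between 3A10t and 1G12t they were 2 on TPM as deposited by either rule, Snhg6 and Snhg12, 0 to 1 by adjusted p with a library left out, and by the rule of the study the same 2 with the length correction, with or without the block. Between 3A10t and EV+IL-2 they were 2 by adjusted p on TPM as deposited, where Gas5 joined Snhg4. They were 0 by either rule with quantile normalization and with only the 6 libraries, and 0 to 1 with a library left out. They were also 0 with the length correction, with or without the block. There Snhg4, the only member called in the main fit, had no value, so that 0 was not a lost call. Between 1G12t and EV+IL-2 they were 1 by adjusted p and 0 by the rule of the study on TPM as deposited. They were 1 by either rule with quantile normalization and with the length correction, with or without the block. The 1 after the length correction was Gas5, since Snhg4 had no value there.

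The sign changes were all of uncalled log2 fold changes, the largest 0.17 for Snhg3 between 3A10t and 1G12t, and their cause was not tested. On TPM as deposited, 3A10t against EV no IL-2 gave -0.093 for Snhg1 and -0.14 for Snhg5, 1G12t against EV no IL-2 gave 0.0028 for Gas5, 0.036 for Snhg3 and 0.018 for Snhg6, and 3A10t against 1G12t gave -0.017 for Snhg3, -0.11 for Snhg4, -0.11 for Snhg5 and -0.19 for Snhg8. With quantile normalization, 1G12t against EV no IL-2 gave 0.039 for Gas5, 0.061 for Snhg3 and 0.017 for Snhg6, 3A10t against 1G12t gave 0.10 for Snhg1, and 3A10t against EV+IL-2 gave 0.047 for Snhg12. With the length correction, alone and with the replicate block, 3A10t against EV no IL-2 gave -0.014 for Snhg1 and -0.032 for Snhg5, and 3A10t against 1G12t gave -0.096 for Snhg8. With only the 6 libraries compared, Snhg5 in 3A10t against EV no IL-2 was -0.0081 and Snhg1 in 3A10t against 1G12t was 0.0061. With a library left out, Snhg8 in EV+IL-2 against EV no IL-2 ranged from -0.018 to 0.14. In 3A10t against EV no IL-2, Snhg1 ranged from -0.078 to 0.13 and Snhg5 from -0.080 to 0.11. In 1G12t against EV no IL-2, Snhg1 ranged from -0.078 to 0.13, Snhg3 from -0.089 to 0.066, Snhg5 from -0.16 to 0.025 and Snhg6 from -0.057 to 0.0099. In 3A10t against 1G12t, Snhg1 ranged from -0.045 to 0.057, Snhg5 from -0.014 to 0.17 and Snhg8 from -0.13 to 0.15. In 1G12t against EV+IL-2, Snhg3 ranged from -0.0079 to 0.15, Snhg5 from -0.049 to 0.13 and Snhg6 from -0.018 to 0.053.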
